A study of Rattus norvegicus with 8 samples.

Results

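The genes described here encode carriers that move amino acids across the plasma membrane: the heavy chain Slc3a2, 3 light chains that pair with it (Slc7a5, Slc7a8 and Slc7a11), the cationic amino acid carriers Slc7a1 and Slc7a3, and the neutral amino acid carriers Slc38a1, Slc38a2, Slc1a4 and Slc1a5. They were chosen by symbol from the 26405 genes of each table, and 9 of the 10 listed symbols were found, each with 1 row and with reads in both tables. Slc1a5 had no row under its symbol. One row without a symbol carries the Entrez identifier of Slc1a5 (ENSRNOG00000015948), and its values are given apart.

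Slc3a2, also called 4F2hc or CD98, is a glycoprotein with a single membrane span that holds no transport pore. It is joined by a disulfide bond to a light chain of the Slc7 family, brings it to the cell surface, and the light chain carries the substrate. Slc7a5 and Slc7a8 exchange large neutral amino acids such as leucine, while Slc7a11 takes up cystine in exchange for glutamate and so feeds glutathione synthesis. Slc7a1 and Slc7a3 carry arginine and lysine without a heavy chain. Slc38a1 and Slc38a2 take up glutamine with sodium, a route by which neurons obtain the precursor of glutamate, and Slc1a4 exchanges alanine, serine and cysteine. Several of these genes are known targets of the transcription factor ATF4, which is made when cells lack amino acids or are otherwise stressed.

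RNA was sequenced from hippocampal neurons of rat embryos grown for 10 to 14 days in microfluidic chambers, in which axons extend into a compartment apart from the cell bodies. Axons alone received soluble oligomeric Abeta(1-42), an amyloid peptide, or its vehicle for 24 h. The groups were axons with Abeta, axons with vehicle, cell bodies (with the neurites around them) after axonal Abeta, and cell bodies after axonal vehicle, with 2 samples each. Whether the duplicates were separate cultures is not stated, so a p-value reflects only how these samples vary, which may be technical. In bulk RNA, fewer cells of a type and less RNA per cell cannot be told apart.

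The deposited tables hold 1 comparison of treatments per compartment and do not name its numerator. A positive log2 fold change therefore marks a side, called the positive side here, and no sign can be read as an effect of Abeta in either direction. Reads per library were worked back from the means (mean normalized counts over 4 libraries), and every value of the transporter genes had exactly 1 solution. Recovered libraries carry their side and a number, not a sample title. The positive-side axonal libraries had size factors (the scale of a library's depth) of 1.32 and 1.28, and the negative-side ones 0.952 and 0.740. Both sides of the cell body comparison held a deep library (2.97 on the positive, 3.74 on the negative side) and a shallow one (0.297 and 0.320). Counts for the 9 genes ran between 3 and 213 reads per axonal library and between 2 and 1337 per somatic library.

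In axons, the question is which carrier transcripts differ between the treatments. Among the 3 carriers with an adjusted p, the heavy chain Slc3a2 passed the test, to the positive side, and no other did. Its partner Slc7a5 lay to the same side without passing, and the light chain Slc7a8 lay near 0. The neutral carrier Slc1a4 also lay to the positive side but had no adjusted p. Slc3a2 (ENSRNOG00000018487) had 85.4 and 167 normalized counts in its positive-side axonal libraries, against 42.0 and 31.1 in the negative-side ones. These rest on 113 and 213 positive-side reads, against 40 and 23 negative-side reads. The sides did not overlap, and the positive-side libraries differed between themselves by more than the negative-side ones. In the authors' deposited table, Slc3a2 had a log2 fold change of 1.65 (SE 0.55, DESeq2 adjusted p = 0.0169), or 3.14-fold with a 95% interval of 1.48 to 6.66.

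**Figure D1:**
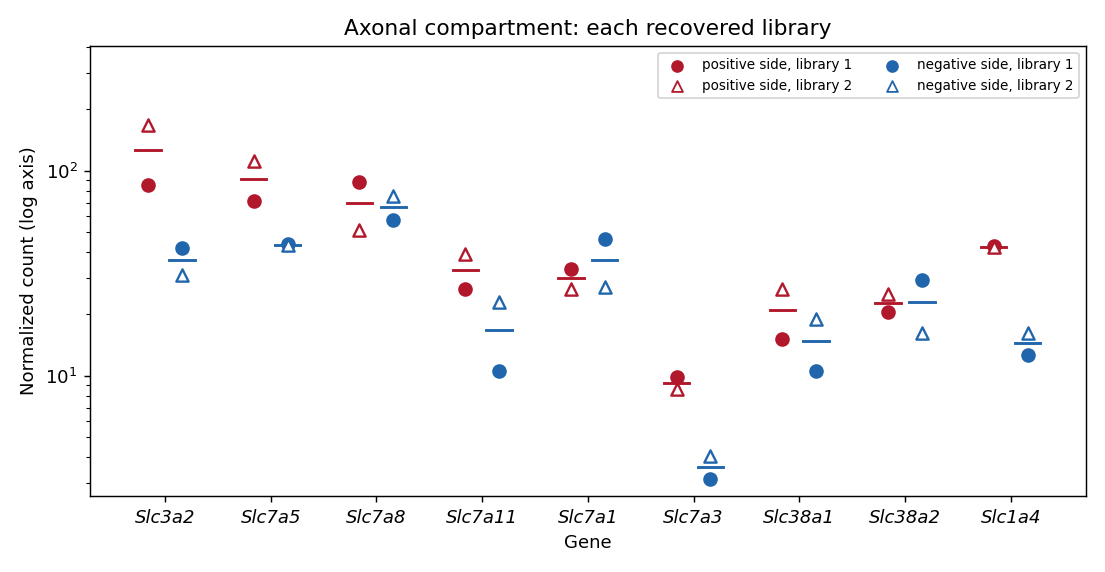
Normalized counts (log axis) of 9 transporter genes in the 4 recovered axonal libraries, with circles for library 1 and triangles for library 2 of a side, and short lines for the mean of a side. Both positive-side values of Slc3a2 (85.4 and 167) lie above both negative-side values (42.0 and 31.1), while the sides of Slc7a8 overlap.

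That call depended on how p-values were adjusted. The authors' adjusted p covers 1321 genes, of which 304 were called (23.0%), 116 on the positive side (8.78%) and 188 on the negative side (14.2%). Slc3a2 was the 1 called among the 3 transporter genes with an adjusted p, the others being Slc7a5 and Slc7a8. Adjusted over the 8032 genes with an axonal mean of at least 10, the p of Slc3a2 was 0.0882, and over all 23879 genes with axonal reads it was 0.2498. Genes whose somatic mean reached 100 lay at 0.44 in the median (axonal log2 fold change), and centred there Slc3a2 stood at 1.21 with an adjusted p of 0.118. With that centring the calls over all genes were 67 positive and 221 negative. Astrocyte markers were also higher in sum in positive-side axons (1794 and 1886 normalized counts, against 491 and 1036 in negative-side axons), and their part in this result was not tested.

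Of the light chains, Slc7a5 (ENSRNOG00000018824), the exchanger of large neutral amino acids also called LAT1, had 71.1 and 112 normalized counts in axons on the positive side, against 44.1 and 43.2 on the negative side. The sides did not overlap, yet its deposited log2 fold change of 0.99 (SE 0.55) was not called in the authors' deposited table (DESeq2 adjusted p = 0.209). The 95% interval ran from 0.941-fold to 4.19-fold. Slc7a8 (ENSRNOG00000014311), the related exchanger LAT2, had 87.7 and 51.6 normalized counts on the positive side, against 57.8 and 75.6 for the negative side, which overlap. Its log2 fold change was 0.06 (SE 0.55, DESeq2 adjusted p = 0.950) in the authors' deposited table, with an interval of 0.493-fold to 2.21-fold. Slc7a11 (ENSRNOG00000010210), the cystine carrier xCT, had 26.5 and 39.1 normalized counts in positive-side axons, against 10.5 and 23.0 in negative-side axons. These sides did not overlap, on 35 and 50 positive-side reads against 10 and 17 negative-side reads. The authors' deposited table gives it a log2 fold change of 0.84 (SE 0.74) and no adjusted p, since its mean of 24.8 lies under 44.8, the smallest mean given one.

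Reads of Slc7a5 per read of Slc3a2 compare the pair within a library. The ratio was 0.832 and 0.671 in the positive-side axonal libraries, against 1.05 and 1.39 in the negative-side ones, so the ratio was lower in both positive-side libraries. Slc7a8 reads numbered 1.03 and 0.310 per Slc3a2 read on the positive side, against 1.38 and 2.43 on the negative side. For Slc7a11 the sides overlap, with 0.310 and 0.235 on the positive side, against 0.25 and 0.739 for the negative side. No test was made of these ratios, and Slc3a2 enters each of them.

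Neither of the cationic carriers had an adjusted p. Slc7a1 (ENSRNOG00000000924), the widely expressed arginine carrier, had 33.3 and 26.6 normalized counts in positive-side axonal libraries and 46.2 and 27.0 in negative-side ones, with overlapping sides. Its log2 fold change in the authors' deposited table was -0.26 (SE 0.66). Slc7a3 (ENSRNOG00000004133), its relative known from brain, had the fewest reads of the 9 genes, with 13 and 11 in positive-side libraries, against 3 and 3 in negative-side ones. As normalized counts these were 9.83 and 8.61 on the positive side against 3.15 and 4.05 on the negative side, with no overlap. The log2 fold change of 0.91 had an SE of 1.00 in the authors' deposited table, and the 95% interval spanned 0.482-fold to 7.28-fold.

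Among the neutral carriers, Slc1a4 (ENSRNOG00000005248), the alanine, serine and cysteine exchanger ASCT1, had 43.1 and 42.3 normalized counts in positive-side axonal libraries, against 12.6 and 16.2 in negative-side ones. The libraries of a side lay close together and the sides did not overlap. The authors' deposited table lists a log2 fold change of 1.38 (SE 0.70), or 2.60-fold, with an unadjusted p of 0.0476 and no adjusted p at its mean of 28.5. Of the 8032 genes whose mean reached 10, 9.25% had an unadjusted p under 0.05, and 4.78% had one on the positive side. The glutamine carriers Slc38a1 and Slc38a2 had overlapping sides. Slc38a1 (ENSRNOG00000005291) had 15.1 and 26.6 normalized counts on the positive side, against 10.5 and 18.9 for the negative side, and Slc38a2 (ENSRNOG00000006305) had 20.4 and 25.04 on the positive side, against 29.4 and 16.2 for the negative side. The authors' deposited table puts Slc38a1 at 0.42 (SE 0.80) and Slc38a2 at -0.01 (SE 0.74) on the log2 scale, without adjusted p-values.

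Over the 9 genes the median axonal log2 fold change in the authors' deposited table was 0.84, and 7 of the 9 lay above 0. The median was 0.15 over all 8032 genes with an axonal mean of at least 10. It was 0.44 over genes averaging 100 or more counts in cell bodies. Beside these, the 8 carriers whose axonal mean reached 10 had a median of 0.63. In 4 of these 8 both positive-side libraries lay above both negative-side ones, beside 30.7% of the 7812 recovered genes of that level. The 4 carriers with a somatic mean of at least 100 (Slc3a2, Slc7a5, Slc7a11 and Slc1a4, grouped after their values were seen) lay between 0.84 and 1.65, and the other 5 between -0.26 and 0.91.

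**Figure D2:**
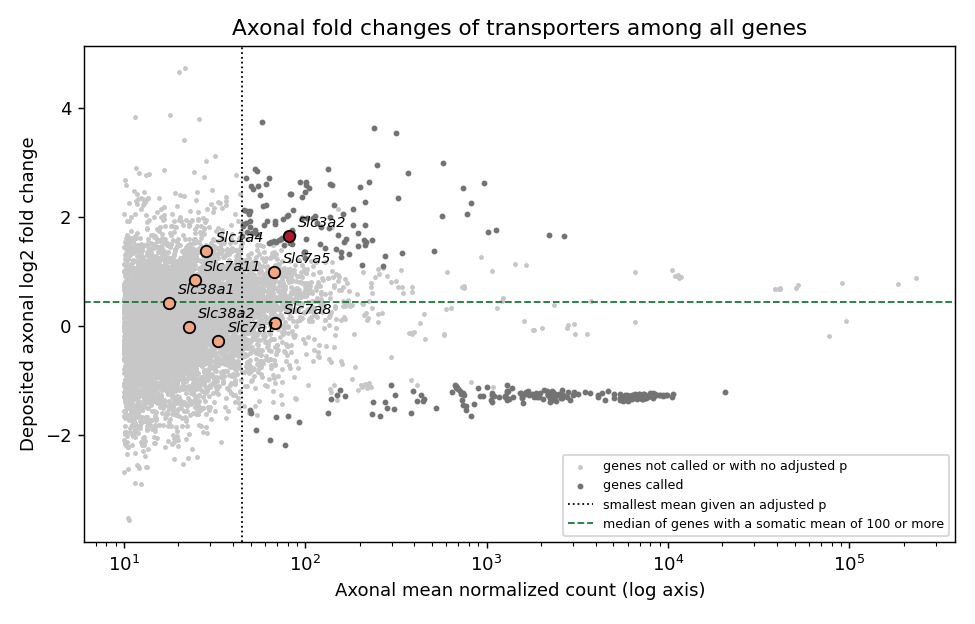
Deposited axonal log2 fold change against the axonal mean normalized count (log axis) for all 8032 genes with a mean of at least 10, with the 8 transporter genes of that level as labelled circles. Slc3a2 at 1.65 is the labelled gene that was called, Slc7a1 at -0.26 is the lowest, and 5 of the 8 lie left of the dotted line at 44.8, below which no adjusted p was given.

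Because several carriers are known ATF4 targets and Slc7a11 is a known target of Nrf2, a regulator of antioxidant genes, the 250 bases before each transcription start were searched for the core letters read by each factor. The RefSeq windows of build GRCr8 held 9 starts for 8 of the genes, 2 of them for Slc3a2, and Slc7a3 and Slc1a5 were not matched. TGATGNAA, the core of the element bound by ATF4 with C/EBP partners, was searched on both strands and stood in 3 of the 8 genes, beside 3.40% of all 33469 windows. TGACNNNGC, the core of the antioxidant response element, stood in 3 of the 8, beside 10.1% of all windows. For both runs of letters the carriers are counted by gene and the background by window. These shares are therefore not on the same base, and enrichment was not tested. A match in each of the 3 genes with TGATGNAA is shown. These lie at chr12:11664428-11664487 (plus strand), chr7:129681510-129681569 (minus strand) and chr14:98761753-98761812 (minus strand, where the match is on the opposite strand of the gene). The match to TGACNNNGC in the called gene Slc3a2 lies at chr1:215039681-215039740 (minus strand), 45 bases before the second of its starts and on the opposite strand of the gene. Capitals mark the matched letters, and all are written 5′ to 3′ on the strand of the gene.
Slc7a1: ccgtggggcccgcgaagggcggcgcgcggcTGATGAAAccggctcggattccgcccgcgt
Slc38a1: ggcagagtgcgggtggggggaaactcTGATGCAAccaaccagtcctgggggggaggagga
Slc1a4: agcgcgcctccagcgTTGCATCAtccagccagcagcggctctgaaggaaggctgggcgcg
Slc3a2: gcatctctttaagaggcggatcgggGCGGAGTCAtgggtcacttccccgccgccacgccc
The authors' deposited table puts the axonal log2 fold changes of the first 3 genes at -0.26 (SE 0.66), 0.42 (SE 0.80) and 1.38 (SE 0.70). None of the 3 had an adjusted p. Whether the letters go with a fold change was not tested. Slc7a1 and Slc38a2 also held TGACNNNGC. The windows of Slc7a5, Slc7a8 and Slc7a11 held neither run of letters. No other part of the genes was searched, so a gene without a match may hold the letters elsewhere.

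The second comparison asks whether the carriers differed in cell bodies when axons alone were treated. None of the 9 did by the test: the authors' deposited table gives each a DESeq2 adjusted p of 1.00, as it calls 0 of 18995 genes (0.0%). Unadjusted p-values of the 9 were 0.431 or larger, while 2 of the 18995 genes had one under 0.05. Each side held a deep and a shallow library, and the test separated the sides of no gene. The lack of a call therefore does not show that a carrier had equal levels in cell bodies on both sides. Log2 fold changes in the authors' deposited table lay between -0.36 (Slc7a11, SE 0.46) and 0.12 (Slc1a4, SE 0.47). Slc3a2 had 339 and 283 normalized counts in the deep and the shallow library of the positive side, against 357 and 285 in those of the negative side. These values overlap, and the 95% interval of its fold change ran from 0.528-fold to 1.798-fold.

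Slc7a11, the cystine carrier, had 169 and 141 normalized counts in positive-side somatic libraries, against 209 and 216 in negative-side ones. The sides did not overlap, and the fold change of 0.779 had an interval of 0.418 to 1.45. Slc38a2, a glutamine carrier, likewise had lower values on the positive side (83.9 and 87.5, against 106 and 93.8 for the negative side), and Slc1a4 had higher ones (129 and 131, against 121 and 113 for the negative side). Non-overlapping sides thus occurred in 2 of 9 genes with the negative side higher, beside 8.32% of 10903 recovered genes, and in 1 of 9 with the positive side higher, beside 7.47%. This count takes no account of the depth of a library.

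**Figure D3:**
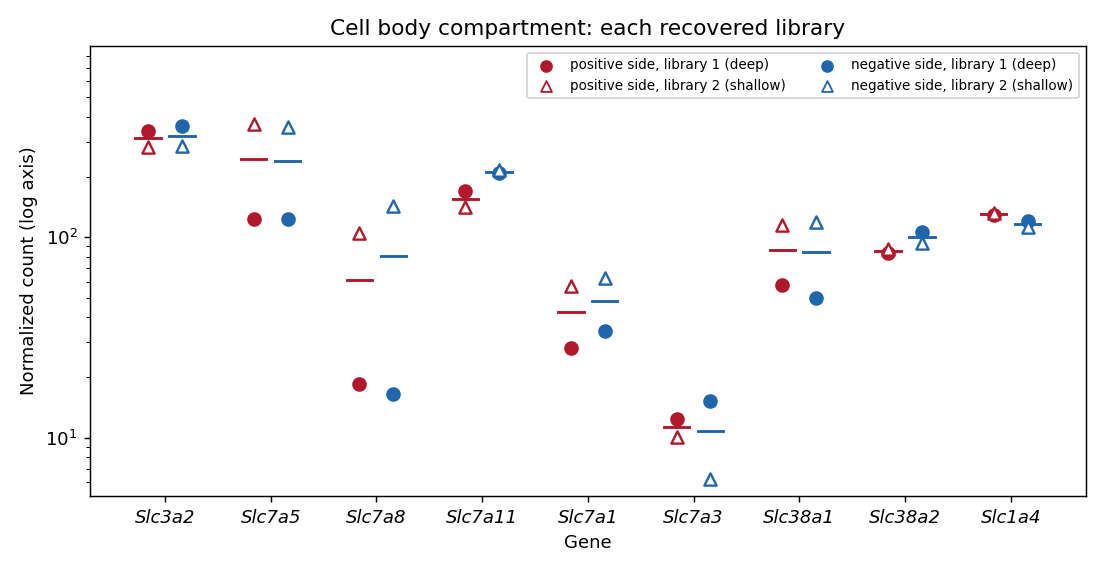
Normalized counts (log axis) of the 9 transporter genes in the 4 recovered somatic libraries, with circles for the deep and triangles for the shallow library of each side, and lines for the mean of a side. The deep and shallow values of Slc7a8 lie far apart on both sides (18.5 and 104 for the positive side, 16.6 and 144 for the negative side), while those of Slc3a2 lie close together.

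The larger differences in cell bodies lay between libraries of one side. Slc7a8 had 18.5 normalized counts in the deep and 104 in the shallow positive-side library, against 16.6 and 144 on the negative side. The shallow libraries were thus 6.83-fold higher on average (with 0.5 added to each value), a ratio above that of 98.5% of the 10903 recovered genes with somatic means of 10 or more. Slc7a5 had 123 and 367 on the positive side, against 123 and 357 on the negative side, and Slc38a1 had 57.6 and 114 for the positive side, against 49.7 and 119 for the negative side. Slc7a1 followed the same order, with 28.0 and 57.2 for the positive side, against 33.9 and 62.6 for the negative side. The shallow libraries were 2.93-fold, 2.17-fold and 1.93-fold higher for these 3 genes, above 92.6%, 87.3% and 84.5% of genes. Slc3a2 (0.815-fold), Slc7a11 (0.929-fold), Slc38a2 (0.962-fold) and Slc1a4 (0.974-fold) stayed close to the same level in both depths. Slc7a3 had 12.5 and 10.1 normalized counts on the positive side, against 15.2 and 6.26 for the negative side, on 2 or 3 reads in each shallow library.

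The heavy chain and its light chain Slc7a5 stood in different proportions in deep and shallow libraries. Slc7a5 reads per Slc3a2 read numbered 0.362 in the deep positive-side library and 0.345 in the deep negative-side one. In the shallow libraries they numbered 1.298 in the positive-side and 1.253 in the negative-side library. For Slc7a11 the ratio was 0.498 (deep) and 0.50 (shallow) for the positive side, against 0.586 (deep) and 0.758 (shallow) for the negative side. Libraries of like depth were also set against each other. The positive side was lower at both depths for 4 of the 9 carriers (Slc3a2, Slc7a1, Slc7a11 and Slc38a2), beside 29.9% of recovered genes, and higher at both for 1 (Slc1a4), beside 23.6%. For the other 4 the depths gave opposite directions. The log2 ratio of the sides of Slc3a2 was -0.07 between deep and -0.01 between shallow libraries. For Slc7a11 it was -0.31 and -0.61, for Slc1a4 0.09 and 0.22, and for Slc7a8 0.16 and -0.46.

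The third comparison asks whether the difference between treatments was itself different in axons and in cell bodies. No carrier passed. The axonal minus somatic difference of log2 fold changes was 1.69 for Slc3a2 (SE 0.71, 95% interval 0.29 to 3.09), with an unadjusted p of 0.0181 and an adjusted p of 1.00 over the 18406 genes tested in both tables (normal test of the difference, Benjamini-Hochberg). Of these genes 6 passed (0.0326%) and 479 had an unadjusted p under 0.05. Slc3a2 was the 1 of the 9 carriers with an unadjusted p under 0.05. Slc1a4 stood at 1.26 (SE 0.84), Slc7a11 at 1.20 (SE 0.87), Slc7a5 at 0.97 (SE 0.77) and Slc7a3 at 0.91 (SE 1.16). The other 4 lay between -0.13 (Slc7a1) and 0.40 (Slc38a1).

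**Figure D4:**
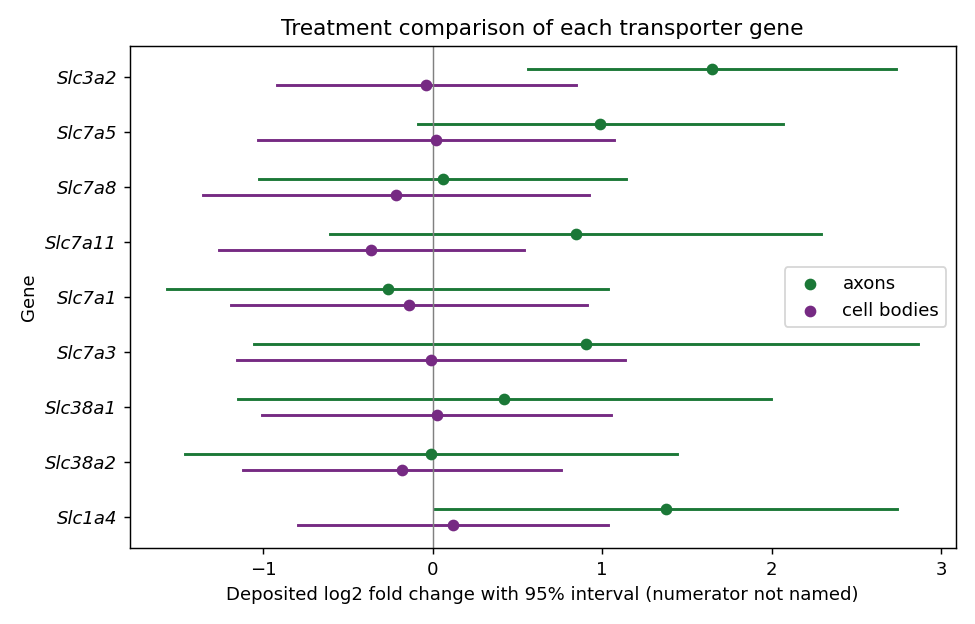
Deposited log2 fold change with its 95% interval for the 9 transporter genes in axons (upper of each pair) and cell bodies (lower). The axonal intervals of Slc3a2 and Slc1a4 lie above 0, and every somatic interval includes 0.

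Levels of a carrier in the 2 compartments were set side by side, although the tables were normalized separately, so that the ratio of a gene is read against that of other genes. Over 7257 genes with a mean of at least 10 in both tables, the median axonal over somatic ratio was 0.30. Slc7a8 had an axonal mean of 68.2 and a somatic mean of 70.8, a ratio of 0.963 that lay above 92.1% of genes. Slc7a1 followed with 33.3 and 45.4, a ratio of 0.733, above 87.7% of genes. Both also belong to the genes that were higher in shallow than in deep somatic libraries. The sign of these ratios depends on the scaling: by reads per library total of recovered genes, Slc7a8, Slc7a1 and Slc7a3 were higher in axons (log2 ratios 1.43, 1.05 and 0.71), and the other 6 were lower there.

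The heavy chain lay closer to the median gene, with means of 81.3 in axons and 316 in cell bodies, a ratio of 0.257. Slc7a5 (67.6 and 242, ratio 0.279), Slc38a2 (22.8 and 92.8, 0.245), Slc1a4 (28.5 and 123, 0.231) and Slc38a1 (17.8 and 85.2, 0.209) were near it, and their order is within the spread between libraries. Slc7a11 had the lowest ratio of the 9, 0.135 (24.8 and 184), above 7.52% of genes. Slc7a3 had means of 6.41 and 11.01. All 9 genes thus had reads in the axonal libraries, 8 of them at a mean of 10 or more. Genes with few somatic reads also reached that level, such as Slc1a5 (13.5 in axons, 1.57 in cell bodies). The endothelial marker Tek did so as well (14.1 and 0.82). Which cells the axonal reads of the carriers came from was not tested.

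**Figure D5:**
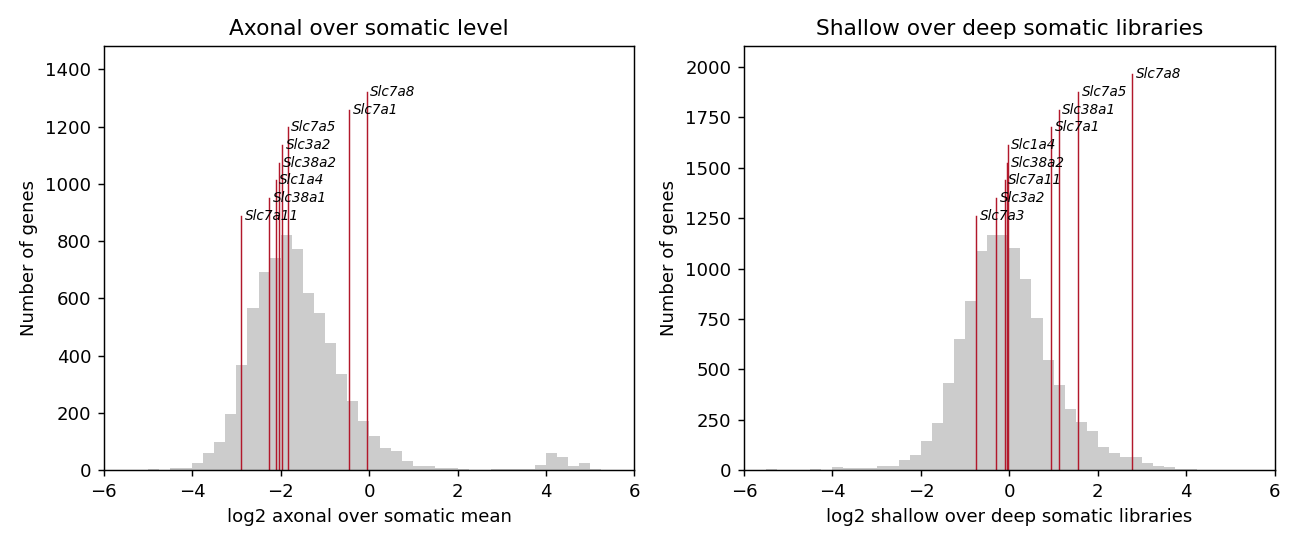
Number of genes (grey bars) by log2 ratio of the axonal to the somatic mean (left) and of shallow to deep somatic libraries (right, mean of both sides), with transporter genes as vertical lines of arbitrary height. Slc7a8 lies at the right of both distributions (-0.06 and 2.77), and Slc7a11 at the left of the first (-2.89); Slc7a3, with an axonal mean under 10, is drawn on the right only.

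The row with the Entrez identifier of Slc1a5, the glutamine exchanger ASCT2, had 15.1 and 3.13 normalized counts in positive-side axonal libraries and 11.6 and 24.3 in negative-side ones. The sides overlap, and the log2 fold change was -0.74 (SE 0.89) in the authors' deposited table. In cell bodies it had 2.02 normalized counts in the deep positive-side library, against 4.27 in the deep negative-side one, and 0 reads in both shallow ones. Its mean was 13.5 in axons and 1.57 in cell bodies.

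Other genes of amino acid supply were counted by lists. Over all 1321 genes with an axonal adjusted p, 23.0% were called, and 8.78% on the positive side. Of 46 other amino acid carriers, 2 had an axonal adjusted p and 1 was called, on the positive side: Slc1a3, a glutamate carrier of astrocytes, with 256 and 397 normalized counts in positive-side axons, against 110 and 103 in negative-side axons (log2 fold change 1.54, DESeq2 adjusted p = 0.00857 per the authors' deposited table). The 19 whose mean reached 10 had a median of 0.16. Slc7a2, another cationic carrier, lay to the other side, with 9.07 and 13.3 normalized counts on the positive and 32.6 and 25.7 on the negative side. The authors' deposited table gives it a log2 fold change of -1.17 (SE 0.76) without an adjusted p. None of 7 mitochondrial amino acid carriers reached an axonal mean of 10.

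Of 24 enzymes of amino acid synthesis, 3 had an adjusted p and 1 was called, the glutamine synthetase Glul, with 220.0 and 209 normalized counts in positive-side axons, against 49.4 and 66.2 in negative-side axons (log2 fold change 1.801, DESeq2 adjusted p = 0.00314 in the authors' deposited table). Among 29 genes of amino acid sensing and mTORC1, a kinase complex activated by leucine and arginine, 4 had an adjusted p and 1 was called. This was Sesn3, an inhibitor of that complex, with 48.4 and 112 normalized counts in positive-side axons, against 19.96 and 22.96 in negative-side axons (log2 fold change 1.72, DESeq2 adjusted p = 0.0306 in the authors' deposited table). No call fell among 20 aminoacyl-tRNA synthetases (5 with an adjusted p), 21 amino acid response genes (2), 17 glutathione and Nrf2 genes (2) or 9 partners of the heavy chain (2), by DESeq2 in the authors' deposited table. At a mean of at least 10, 9.25% of all 8032 genes had an unadjusted p under 0.05, and 4.78% had one on the positive side. In those lists it was under 0.05 for 0 of 20, 1 of 10, 3 of 14 and 2 of 7 genes, in that order. The partners among these were Slc16a1 (log2 fold change 2.23, DESeq2 unadjusted p = 0.000925) and Cav1 (1.81, DESeq2 unadjusted p = 0.0112). Their means of 36.8 and 27.6 lie under the smallest mean given an adjusted p. The median log2 fold changes of those lists at that level were 0.62, 0.88, 0.84 and 0.87, against 0.15 for all genes. The enzymes had 0.63 and the sensing genes 0.51. Genes averaging 100 or more counts in cell bodies had a higher axonal median than all genes, 0.44. Whether the lists differ from genes of like somatic level was not tested. In cell bodies 0 genes of these lists were called, with somatic medians between -0.08 and 0.08.

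Some astrocyte and fibroblast markers were called in axons, and the part of such markers in the values of the carriers was not tested. Of 18 astrocyte markers, 12 had an adjusted p and 7 were called, all positive, among them Gfap and Vim, by DESeq2 in the authors' deposited table. Over all 1321 genes with an adjusted p, 8.78% were called on the positive side. At a mean of at least 10, 12 of 16 astrocyte markers had a log2 fold change above 0. Slc1a2 (-0.82), Slc4a4 (-0.77), Sparcl1 (-0.71) and Fabp7 (-0.02) lay to the negative side. Slc1a3 and Glul, named above, are 2 of these 18 markers. Recovered reads cover 16 of the 18, without Gfap and Vim. These summed to 1794 and 1886 normalized counts on the positive side, against 491 and 1036 on the negative side. Of 17 fibroblast markers, 3 had an adjusted p and 2 were called, both positive. The 17 summed to 510 and 884 on the positive side, against 266 and 249.9 for the negative side. The called ones were Col1a1 and Col1a2, collagen genes, which hold much of that sum: Col1a1 had 221 and 497 normalized counts on the positive side, against 80.9 and 52.7 for the negative side. The list as a whole did not follow them, with a median log2 fold change of -0.31 and 3 of the 7 markers at a mean of at least 10 above 0. Microglial markers summed to 109 and 58.7 on the positive side, against 127 and 213 for the negative side. Endothelial and mural ones summed to 83.1 and 36.8 on the positive side, against 134 and 98.6 for the negative side. Of these 14 and 11 markers none had an adjusted p, and 1 and 0 had an unadjusted p under 0.05 at a mean of at least 10. Oligodendrocyte markers summed to 90.7 and 86.9 on the positive side, against 92.4 and 49.97 for the negative side. Neuron markers summed to 713 and 772 on the positive side, against 482 and 1005 for the negative side. Of these 10 and 13 markers, 0 and 6 had a DESeq2 adjusted p in the authors' deposited table, 0 were called, and 0 had an unadjusted p under 0.05. No marker had an axonal mean of 0, though single libraries did hold 0 reads of one (Tek, in 1 positive-side library). In the somatic table astrocyte markers recovered (9 of 18) summed to 1065 (deep) and 1711 (shallow) on the positive side. The negative side had 1078 (deep) and 1783 (shallow). Markers with a somatic mean above 500 are left out, among them Gfap, Vim, Slc1a3, Glul, Sparcl1 and Fabp7. The somatic sum thus covers a different set of markers from the axonal sum, and the 2 cannot be compared. Genes with axonal but no somatic reads, 5473 in number, took 3.07% and 1.34% of recovered reads on the positive side, against 6.19% and 5.15% on the negative side.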

How the data were processed

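DESeq2, SAMtools, TopHat2 and Trim Galore are named, per the submitters' processing notes, without versions. Which genome build, annotation and counting program were used, and whether strand was used, is not given in the sources used here. Reads of overlapping or antisense genes cannot be told apart. Per the file headers, each of the 2 tables holds the mean of normalized counts (a signal the authors scaled by size factor), the deposited log2 fold change and its standard error, a Wald score deposited by the authors, and the p-value, deposited raw and adjusted.

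Reads per library were recovered from means under 500, which carry up to 15 digits: a mean is a sum of 4 whole read counts, each times a unit fixed for its library. Of such means, 100% had exactly 1 solution within the rounding of the last digit. The method and the difference test were tested on simulated data. Recovered libraries enter no test. Ratios of sides are of normalized counts, and intervals are the deposited fold change plus or minus 1.96 standard errors. Deposited log2 fold changes of the carriers were mostly smaller in size than the recovered log2 ratios. Slc7a3 in axons had 0.91 against 1.36, and Slc7a8 in cell bodies had -0.22 against -0.38. Folds, intervals and the axonal minus somatic difference are on the deposited scale. Reads in these genes, which are part of each library, numbered 207879 to 392947 per axonal and 234820 to 3268364 per somatic library, and counts cover counting error only.

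The main calls are the authors' adjusted p under 0.05. Python 3.11.15, numpy 2.4.6, pandas 2.3.3 and scipy 1.17.1 were used. Carriers and lists were chosen with earlier results of these data known. All carriers are named with values. In the 8 pathway and 6 marker lists the rule names called genes and the 3 of smallest axonal p. Of these only the called pathway genes, Slc7a2, Slc16a1, Cav1, Ddit4, Hmox1, Me1, Nqo1, Gfap, Vim, Col1a1, Col1a2 and Tek are printed. Slc1a2, Slc4a4, Sparcl1 and Fabp7 are printed from outside the rule. This selection was made after the values were seen. Transcript lengths were not used here, so reads of a light chain per heavy chain read are compared between libraries only, not read as levels of the pair.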

Additional observations from a re-analysis of the deposited data

How the results depend on the processing

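The count of carriers called in axons, 1 by the authors' adjusted p, was 1 when fold changes were centred on genes with an axonal mean of at least 10 (a shift of 0.15; Slc3a2 adjusted p = 0.0309). It was 0 when p-values were adjusted over genes with a mean of at least 10 (Slc3a2 adjusted p = 0.0882) or over every gene with reads (0.2498), where more genes are tested, and 0 when centred on genes whose somatic mean reached 100 (0.118). Over all genes those 4 settings gave 100 and 207, 71 and 10, 50 and 2, and 67 and 221 positive and negative calls, in that order. The median axonal log2 fold change of the carriers, 0.84, was 0.41 after that centring and 0.97 from recovered ratios, which lay between 0.51 and 1.23 when each library was left out in turn. For Slc3a2 the recovered log2 ratio of 1.79 lay between 1.22 (without positive-side library 2) and 2.19 (without positive-side library 1). No carrier was called in cell bodies, or passed the difference test, in any setting tried. Levels scaled to library totals of recovered genes moved all 9 axonal over somatic log2 ratios up, as they did that of the median gene (-0.24, against -1.74 from deposited means). The sign turned for 3 of the 9: Slc7a8 (1.43, against -0.06), Slc7a1 (1.05, against -0.45) and Slc7a3 (0.71, against -0.78). Of 54 and 72 other values of side ratios in axons and cell bodies, 45 and 62 moved by less than the spread between libraries. Many of these values leave out 1 library, which moves a side by part of the gap between its own libraries. The counts therefore do not measure how stable the ratios are. No paired analysis was possible because the tables hold no column per library and the recovered libraries carry no replicate number; the deep and shallow pairs of cell bodies come from depth, not from labels, and give values with no test. Depth limits the carriers with few reads, such as Slc7a3 with 3 reads in each negative-side axonal library.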
